A study of Homo sapiens with 24 samples.

Results

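Metallothioneins and zinc-handling genes were described across cell type, oxygen and estradiol in HCT116, an established line from a human colorectal carcinoma. The 10 genes are 7 metallothioneins (MT1E, MT1F, MT1G, MT1H, MT1M, MT1X and MT2A), the transcription factor MTF1, the zinc exporter SLC30A1 (ZnT1) and the zinc importer SLC39A10 (ZIP10). They were taken by platform gene symbol, each with its brightest probe set (the highest mean over all 24 arrays) among probe sets with 1 symbol, out of 18239 genes measured that way. All 10 had such a probe set, and no filter on dim signals was applied.

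Metallothioneins are small cysteine-rich proteins that bind zinc and copper and buffer the free metal in the cell. MTF1 senses zinc: when zinc rises it binds metal response elements in the promoters of metallothionein genes and of SLC30A1 and raises their transcription, so that metal is stored or pumped out. ZIP proteins such as SLC39A10 bring zinc into the cytosol, and intestinal epithelium depends on these transporters to absorb and pass on dietary zinc.

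RNA was hybridised to 24 Affymetrix arrays in 8 groups of 3. Parental HCT116 cells were set beside HCT116 cells that carry full-length ESR2, the gene of estrogen receptor beta, fused to an N-terminal HaloTag. The fusion came from a lentiviral vector that also encodes GFP and puromycin resistance, and the cells were a selected, repeatedly infected pool rather than a clone, per the labels. Each cell type was kept in normoxia or in hypoxia (an incubator flushed with nitrogen and CO2), without estradiol or with 10 nM 17β-estradiol. Cells given estradiol were kept before and during it in medium free of phenol red, with charcoal-stripped serum. The sources used here do not give the medium of the other groups, the length of the hypoxia or an empty-vector control. A difference with against without estradiol therefore cannot be told apart from a difference in medium if the media differed. The labels do not say that the 3 arrays of a group came from separate cultures, so a p-value here covers the spread among these arrays, which may be technical. In bulk RNA, fewer cells of a type and less RNA per cell cannot be told apart.

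The transduced gene was higher where the labels place it: in normoxia without estradiol the ESR2 signal averaged 3.47 in parental cells and 4.51 in ESR2 cells (log2 difference 1.05, SE 0.13, adjusted p = 6.44e-06), and 3.43 and 4.07 in hypoxia (difference 0.64, adjusted p = 0.000411). These values are of the brightest of 8 ESR2 probe sets and are dim, near the array medians (4.07 to 4.13). Within ESR2 cells the ESR2 signal was lower in hypoxia without estradiol (difference -0.44, adjusted p = 0.0124) and with it (-0.48, adjusted p = 0.00401). The mean of 5 epithelial markers lay between 9.22 and 9.76 on the normoxic arrays and between 10.19 and 10.51 on the hypoxic ones, against 3.10 to 3.33 for 6 fibroblast markers and 3.40 to 3.70 for 4 markers of the embryonic kidney line that packaged the virus. The mean of 5 leukocyte markers was 4.61 to 4.62 on the 3 arrays of ESR2 cells in hypoxia with estradiol and at most 4.11 on the other arrays. With estradiol in hypoxic ESR2 cells 3 of these 5 were higher, CD68 by 1.68, HLA-DRA by 0.90 and PTPRC, the pan-leukocyte marker CD45, by 0.23 to a mean of 2.81; the T cell marker CD3E (3.80 without and 3.96 with) and the monocyte marker CD14 (2.65 and 2.67) were not called. The part of these marker differences in the results for hypoxia and for that group was not tested. Parental normoxia without estradiol replicate 2 stood apart, with a correlation of 0.988 to another array of its group and a 3′ minus 5′ signal index of control transcripts (a measure of RNA or labelling quality) of 4.34. That index averaged 3.74 ± 0.30 (SD, n = 3) in ESR2 cells in hypoxia with estradiol, and between 2.10 and 3.20 in the other groups. In that ESR2 group 57% of all genes differed from its counterpart without estradiol, and the median gene was higher by 0.12 on the log2 scale. The index was also added to the model as a covariate, and each call of a member in this group that it ended is given with the result. Its slope comes only from spread within groups, which was largest in parental normoxia without estradiol (SD 0.99). The covariate therefore cannot separate array quality from treatment in the ESR2 group.

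Metal response elements share the core TGCACNC or TGCGCNC, where N is any base. The 250 bases before the transcription start were read from RefSeq's promoter table (GRCh38.p14), which held 6 of the 10 genes. Windows of 3 metallothioneins and of SLC30A1 are shown because they hold this core, with each copy on either strand in capitals; where adjacent copies overlap they form 1 run. They lie at chr16:56669564-56669813 (plus strand) for MT1H, chr16:56682220-56682469 (plus strand) for MT1X, chr16:56608334-56608583 (plus strand) for MT2A and chr1:211579162-211579411 (minus strand) for SLC30A1.
MT1H: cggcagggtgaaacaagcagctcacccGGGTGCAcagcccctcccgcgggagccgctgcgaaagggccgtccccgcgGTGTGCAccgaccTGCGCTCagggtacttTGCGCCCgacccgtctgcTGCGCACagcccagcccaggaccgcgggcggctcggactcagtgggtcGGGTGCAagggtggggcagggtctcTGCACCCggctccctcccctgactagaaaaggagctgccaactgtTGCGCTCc
MT1X: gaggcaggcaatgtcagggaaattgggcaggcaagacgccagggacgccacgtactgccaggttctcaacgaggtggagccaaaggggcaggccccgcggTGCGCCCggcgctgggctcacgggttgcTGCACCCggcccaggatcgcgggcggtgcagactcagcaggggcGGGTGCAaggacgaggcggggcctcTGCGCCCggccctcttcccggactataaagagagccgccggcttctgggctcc
MT2A: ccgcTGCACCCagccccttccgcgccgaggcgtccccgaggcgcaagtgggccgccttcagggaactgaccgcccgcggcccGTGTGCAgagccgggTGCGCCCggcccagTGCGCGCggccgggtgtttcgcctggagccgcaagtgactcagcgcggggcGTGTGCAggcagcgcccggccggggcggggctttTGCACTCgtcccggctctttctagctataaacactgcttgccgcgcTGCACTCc
SLC30A1: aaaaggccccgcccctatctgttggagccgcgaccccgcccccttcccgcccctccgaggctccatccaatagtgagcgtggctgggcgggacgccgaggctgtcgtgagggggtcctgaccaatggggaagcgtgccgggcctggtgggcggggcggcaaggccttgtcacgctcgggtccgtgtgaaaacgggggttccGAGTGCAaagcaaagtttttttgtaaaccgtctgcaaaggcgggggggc
The core occurs 8 times before MT1H, 7 times before MT2A, 4 times before MT1X and 1 time before SLC30A1, and not in the windows of MTF1 and SLC39A10. Of 35116 RefSeq windows of the same length, 24.8% hold at least 1 copy, 0.37% at least 4, 0.0313% at least 7 and 0.0171% at least 8. In all 3 metallothionein windows a copy starts 53 or 54 bases before the transcription start, and in the SLC30A1 window the copy starts 49 bases before it. The core of the hypoxia response element, ACGTG or GCGTG on either strand, was found 3 times before SLC30A1, 2 times before MTF1, 1 time before MT1X, MT2A and in each of 2 SLC39A10 windows, and not before MT1H. Of all windows 43.2% hold at least 1 copy, 19.4% at least 2 and 7.76% at least 3. In the MT2A window 1 copy of the metal core overlaps the hypoxia core. The 7 metallothionein genes lie in 1 cluster on chromosome 16 in the order MT2A, MT1E, MT1M, MT1F, MT1G, MT1H and MT1X, with MT1A and MT1B among them. Their transcripts are close to identical: 6 of their 7 brightest probe sets carry the suffix _x_at and 1 the suffix _s_at, which Affymetrix gives to probe sets that can hybridise to other transcripts. A metallothionein value below may hold signal of the others.

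**Figure D1:**
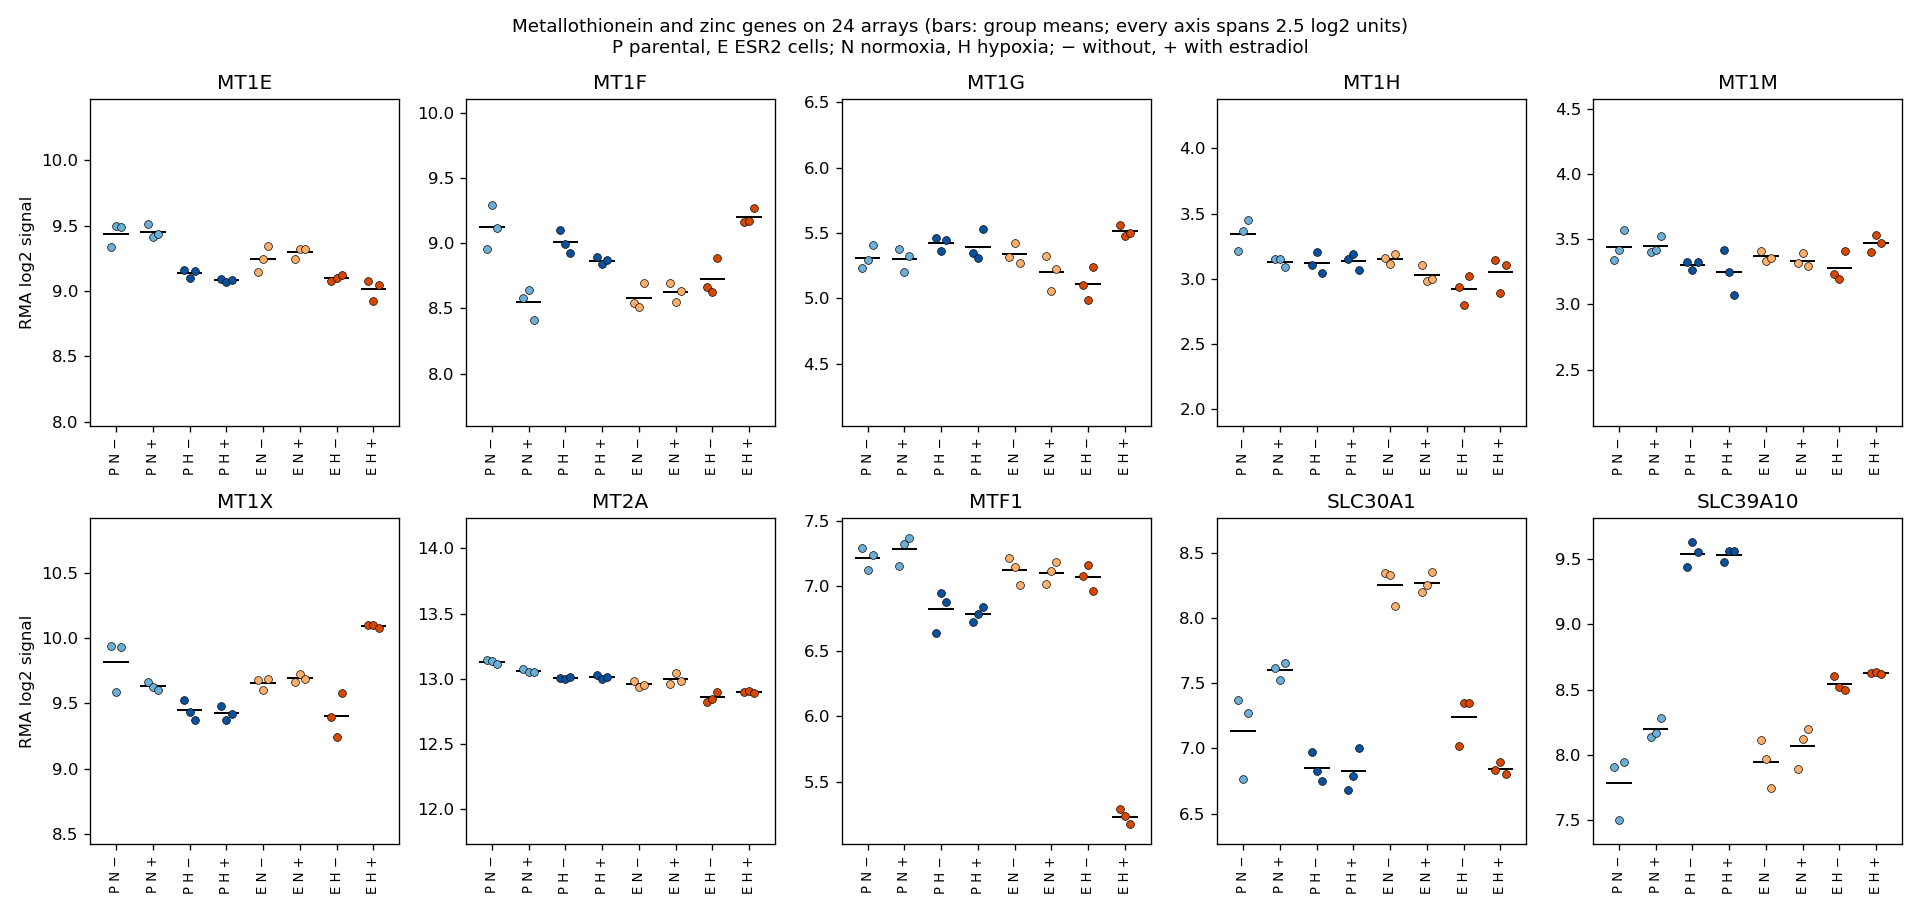
RMA log2 signal of the 10 genes on each of 24 arrays (points; bars are means of 3), by cell type (P parental, E ESR2), oxygen (N normoxia, H hypoxia) and estradiol (− without, + with); every axis spans the same width. SLC39A10 is highest in both parental hypoxia groups (means 9.54 and 9.53), SLC30A1 in both ESR2 normoxia groups (8.25 and 8.27), and MTF1 is lowest in ESR2 hypoxia with estradiol (5.23).

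The zinc importer SLC39A10 rose with hypoxia in all 4 settings of cell type and estradiol, and had the largest hypoxic difference of the 10 genes in parental cells. In parental cells without estradiol its log2 signal was 7.91, 7.50 and 7.95 in normoxia and 9.44, 9.63 and 9.56 in hypoxia, a rise of 1.76 (SE 0.10, 3.38-fold, adjusted p = 1.8e-12). With estradiol it was 8.14, 8.16 and 8.28 in normoxia and 9.48, 9.56 and 9.56 in hypoxia, a rise of 1.34 (2.53-fold, adjusted p = 2.22e-10). Every hypoxic parental array was above every normoxic one, and without the normoxia array that stood apart the first rise was 1.61 (adjusted p = 1.96e-12).

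In ESR2 cells the same gene rose less. Without estradiol its signal was 8.12, 7.97 and 7.75 in normoxia and 8.61, 8.52 and 8.50 in hypoxia (rise 0.60, SE 0.10, 1.51-fold, adjusted p = 7.64e-05). With estradiol it was 7.89, 8.12 and 8.20 in normoxia and 8.62, 8.64 and 8.62 in hypoxia (rise 0.56, 1.47-fold, adjusted p = 7.66e-05). The groups did not overlap in either pair. The hypoxic rise was smaller in ESR2 than in parental cells by 1.16 without estradiol (interaction -1.16, SE 0.15, adjusted p = 1.42e-06) and by 0.78 with it (interaction -0.78, adjusted p = 0.000125). In normoxia the cell types differed by 0.16 (95% interval -0.05 to 0.37, adjusted p = 0.321) without estradiol, and their arrays overlapped; in hypoxia ESR2 cells were lower 2.00-fold (adjusted p = 3.28e-08) without and 1.87-fold (difference -0.91, adjusted p = 7.65e-08) with estradiol. SLC39A10 has 2 further probe sets near the floor of the array, with group means of at most 4.14, whose hypoxic differences in parental cells without estradiol were 0.24 and 0.60.

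SLC30A1, the exporter of zinc across the plasma membrane, showed the largest difference between the cell types in normoxia. Without estradiol its brightest probe set in normoxia gave 7.37, 6.76 and 7.27 in parental cells and 8.35, 8.33 and 8.09 in ESR2 cells, a difference of 1.12 (SE 0.12, 2.17-fold, adjusted p = 8.86e-07). With estradiol it gave 7.62, 7.52 and 7.65 in parental and 8.20, 8.25 and 8.35 in ESR2 cells (difference 0.67, 1.59-fold, adjusted p = 0.000523). All ESR2 arrays in normoxia were above all parental ones. Without the parental array that stood apart, which was the lowest of its group, the first difference was 0.93 (adjusted p = 1.87e-06).

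In hypoxia the signal of that probe set was 6.97, 6.83 and 6.75 in parental and 7.02, 7.35 and 7.35 in ESR2 cells without estradiol, and 6.68, 6.79 and 7.0 in parental and 6.84, 6.90 and 6.80 in ESR2 cells with it. It fell with hypoxia in ESR2 cells by 1.02 without estradiol (2.02-fold, adjusted p = 7.93e-07) and by 1.42 with it (2.68-fold, adjusted p = 1.09e-09), and in parental cells with estradiol by 0.78 (1.71-fold, adjusted p = 1.61e-05). In parental cells without estradiol the difference of -0.28 did not pass (adjusted p = 0.0767), but did without the array that stood apart (-0.47, adjusted p = 0.000852). The hypoxic difference between the cell types was 0.39 (adjusted p = 0.015) without estradiol, a call lost on leaving out parental hypoxia replicate 3 (adjusted p = 0.0659) or ESR2 hypoxia replicate 2 (0.0708) or 3 (0.058). With estradiol it was 0.02 (95% interval -0.23 to 0.28), and the arrays overlapped.

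The other SLC30A1 probe set disagreed with the first, so that the direction for this gene depends on the probe set. In normoxia without estradiol it gave 7.16, 7.05 and 7.05 in parental cells and 7.20, 7.26 and 7.31 in ESR2 cells, where it was not called different. In hypoxia it gave 5.78, 5.72 and 5.75 in parental and 6.89, 6.64 and 6.64 in ESR2 cells without estradiol, and 5.15, 5.40 and 5.25 in parental and 8.61, 8.73 and 8.45 in ESR2 cells with it. By this probe set hypoxia lowered the parental signal by 1.33 (log2 difference -1.33, 2.52-fold, adjusted p = 3.41e-11 over 45253 probe sets), while in ESR2 cells with estradiol it was higher in hypoxia by 1.33 (2.52-fold, adjusted p = 2.44e-11). Estradiol in hypoxic ESR2 cells raised it by 1.87 (3.65-fold, adjusted p = 2.54e-13), where the brightest probe set was lower by 0.39 (difference -0.39, adjusted p = 0.00977); with the 3′ minus 5′ index in the model that second value was -0.025 (adjusted p = 0.921). Averaged over both probe sets the hypoxic difference in ESR2 cells with estradiol was -0.04 (adjusted p = 0.632). Both probe sets fell with hypoxia in ESR2 cells without estradiol and in parental cells with it.

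**Figure D2:**
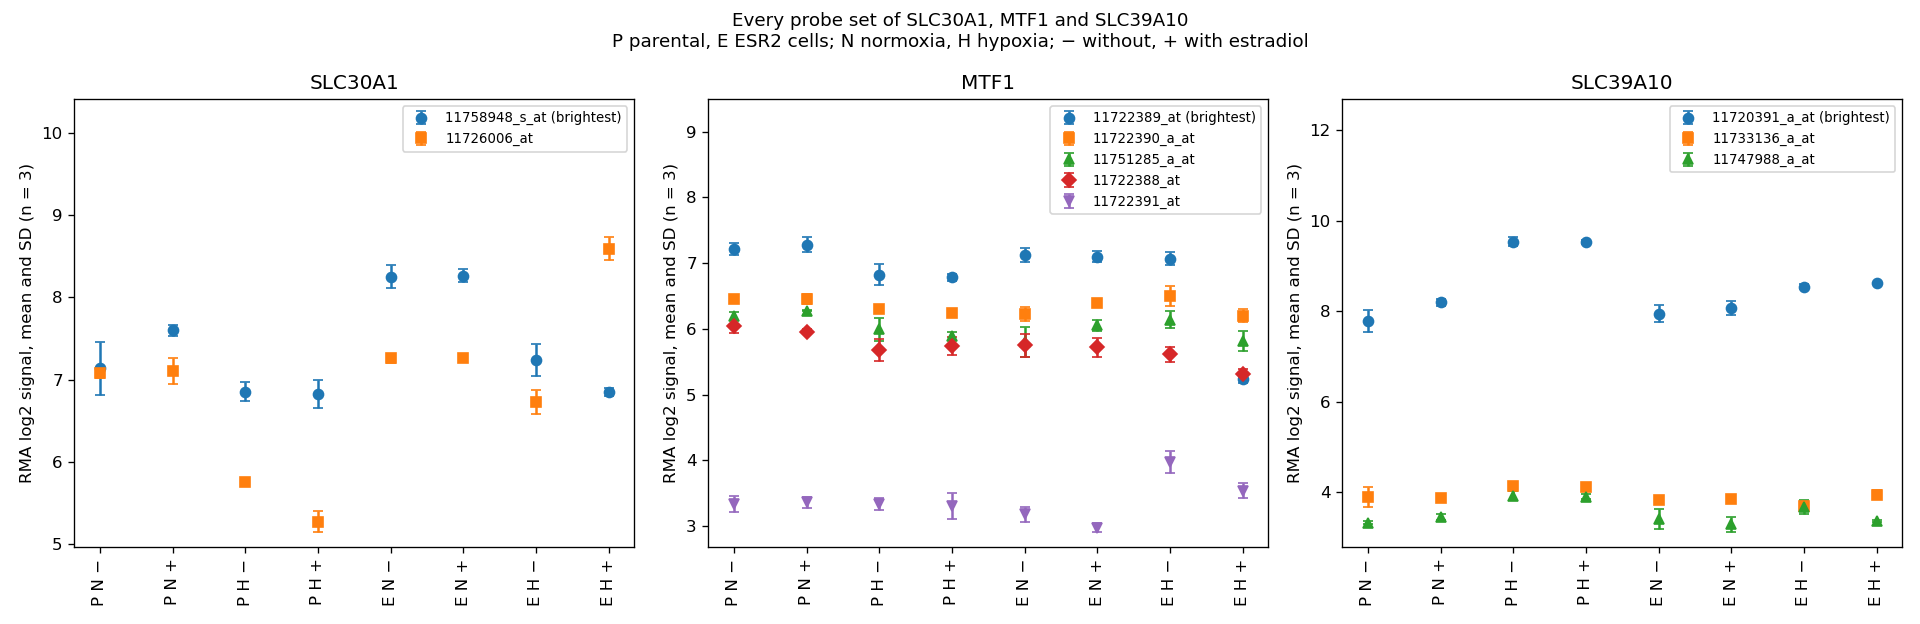
RMA log2 signal (mean and SD of 3 arrays) of every probe set with 1 symbol for SLC30A1, MTF1 and SLC39A10 in the 8 groups (letters as for the plot of signals by array). The SLC30A1 probe sets part in ESR2 hypoxia with estradiol (6.85 and 8.59), and of the 5 MTF1 probe sets the brightest shows a drop to 5.23 there.

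MTF1, the zinc-sensing activator of the metallothionein genes, was lowest in hypoxic ESR2 cells with estradiol. There its brightest probe set gave 5.29, 5.23 and 5.17, against 7.07, 7.16 and 6.96 without estradiol, a difference of -1.83 (SE 0.08, 3.56-fold, adjusted p = 4.83e-14), and against 7.01, 7.11 and 7.18 in normoxic ESR2 cells with estradiol (-1.87, 3.65-fold, adjusted p = 1.23e-14). All 3 arrays were below every other array of the series for this probe set. The size rests on that probe set: the other 4 were lower with estradiol in hypoxic ESR2 cells by 0.30 to 0.44 (differences of -0.30, -0.30, -0.33 and -0.44, all past the threshold over 45253 probe sets). For hypoxia in ESR2 cells with estradiol those 4 did not share a direction, at -0.41, -0.19, -0.24 and 0.56. With the 3′ minus 5′ index in the model the difference of the brightest was -1.78 (adjusted p = 5.34e-10).

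In parental cells MTF1 was lower in hypoxia. Without estradiol it gave 7.29, 7.12 and 7.23 in normoxia and 6.64, 6.95 and 6.88 in hypoxia (difference -0.39, adjusted p = 0.000472), and with estradiol 7.16, 7.32 and 7.37 in normoxia and 6.73, 6.78 and 6.84 in hypoxia (-0.50, adjusted p = 3.03e-05). Neither pair overlapped. In ESR2 cells without estradiol the hypoxic difference was -0.06 (95% interval -0.23 to 0.12, adjusted p = 0.645), with normoxic signals of 7.22, 7.14 and 7.01 that overlapped the hypoxic ones. Averaged over its 5 probe sets that difference was instead 0.24 and past the threshold.

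MT1X, whose promoter is among those shown, moved in opposite directions with hypoxia depending on estradiol in ESR2 cells. Its signal was 9.68, 9.60 and 9.69 in normoxia and 9.40, 9.24 and 9.58 in hypoxia without estradiol (difference -0.25, adjusted p = 0.0243), and 9.66, 9.73 and 9.69 in normoxia and 10.10, 10.10 and 10.08 in hypoxia with it (0.40, adjusted p = 0.000315). The 3 hypoxic ESR2 arrays with estradiol were the highest of all 24. The fall without estradiol lost its call on leaving out ESR2 normoxia replicate 1 (adjusted p = 0.0702) or 3 (0.0731), or ESR2 hypoxia replicate 1 (0.0627) or 2 (0.167). Estradiol raised MT1X in hypoxic ESR2 cells by 0.69 (SE 0.08, 1.61-fold, adjusted p = 3.28e-07), its second probe set by 0.72 (adjusted p = 1.63e-06), and with the 3′ minus 5′ index in the model the difference was 0.88 (adjusted p = 3.85e-06).

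In parental cells MT1X was 9.94, 9.59 and 9.93 in normoxia and 9.53, 9.44 and 9.38 in hypoxia without estradiol, and 9.66, 9.63 and 9.60 in normoxia and 9.48, 9.37 and 9.42 in hypoxia with it. All hypoxic arrays were below the normoxic ones. The fall was 0.37 without estradiol (difference -0.37, 1.30-fold, adjusted p = 0.000775; -0.49 without the array that stood apart). With estradiol the difference of -0.21 did not pass (adjusted p = 0.0615), but did on leaving out parental normoxia without estradiol replicate 2 (adjusted p = 0.0169) or ESR2 hypoxia without estradiol replicate 2 (0.0441) or 3 (0.0392), which enter only the shared spread.

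MT1F was lower in ESR2 than in parental cells in normoxia without estradiol, with 8.54, 8.51 and 8.70 against 8.95, 9.29 and 9.12 (difference -0.54, SE 0.09, 1.45-fold, adjusted p = 0.000105). The arrays did not overlap. In hypoxic ESR2 cells MT1F was 8.67, 8.63 and 8.89 without and 9.16, 9.17 and 9.27 with estradiol (0.47, 1.39-fold, adjusted p = 8.1e-05). That rise was 0.31 (adjusted p = 0.0591) with the 3′ minus 5′ index in the model, and 0.02 by the second MT1F probe set, which was not called. In hypoxia with estradiol ESR2 cells were above parental cells (8.89, 8.84 and 8.87) by 0.33 (adjusted p = 0.0025). That was the opposite direction from normoxia without estradiol, and averaged over both probe sets the value was 0.09 and did not pass (adjusted p = 0.312). With the index in the model it was 0.22 and did not pass either (adjusted p = 0.121).

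Estradiol also lowered MT1F in normoxic parental cells, where 8.95, 9.29 and 9.12 without it stood against 8.58, 8.64 and 8.41 with it (difference -0.57, SE 0.09, 1.49-fold, adjusted p = 0.0197). All 3 estradiol arrays were below the others. MT1F was 1 of 2 genes called in that comparison; the other was KLC3, named after its value was seen. The call was lost in 8 of 34 alternatives, among them leaving out parental normoxia without estradiol replicate 2 (adjusted p = 0.248) or the estradiol replicates 1 (0.107) or 3 (0.161). The second MT1F probe set differed by -0.26 (adjusted p = 0.34).

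The other metallothioneins moved by smaller amounts. MT1E fell with hypoxia in parental cells without estradiol, from 9.34, 9.49 and 9.49 to 9.16, 9.10 and 9.15 (difference -0.30, adjusted p = 0.000382). It also fell in parental cells with estradiol (-0.37, adjusted p = 3.61e-05) and in ESR2 cells with estradiol (-0.28, adjusted p = 0.000719), and none of these 3 pairs overlapped. In ESR2 cells without estradiol the difference of -0.14 did not pass (adjusted p = 0.0906), but did on leaving out ESR2 normoxia replicate 1 (-0.19, adjusted p = 0.0377). MT1G, in hypoxic ESR2 cells, was 5.10, 4.99 and 5.24 without and 5.56, 5.48 and 5.50 with estradiol (0.40, adjusted p = 0.000239), and all 3 of its probe sets rose there. With the index in the model that rise was 0.52 (adjusted p = 0.00189).

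MT2A, often the most abundant metallothionein in human cells, stayed between 12.82 and 13.14 on all 24 arrays, where the highest value of any probe set was 13.3, so that little room was left above it. Its largest called difference was -0.17 (1.13-fold, adjusted p = 0.0152) for ESR2 against parental cells in normoxia without estradiol. That call was lost in 2 of 34 alternatives (adjusted p up to 0.175), among them leaving out ESR2 normoxia without estradiol replicate 2 (adjusted p = 0.0589). Its fall of 0.12 with hypoxia in parental cells without estradiol (difference -0.12, adjusted p = 0.0487) was lost in 27 of 34 alternatives. MT1H and MT1M had mean signals of 3.11 and 3.36, among the dimmest 1 in 3 genes, and their differences were at most 0.23 in size in comparisons of 2 groups. MT1H was lower in hypoxia by 0.23 both in parental (difference -0.23, adjusted p = 0.0217) and ESR2 cells (difference -0.23, adjusted p = 0.021) without estradiol; leaving out 1 of 4 arrays in the first (adjusted p up to 0.121) or 1 of 3 in the second (up to 0.125) ended the call.

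Counted together, hypoxia without estradiol raised 1 and lowered 5 of the 10 genes in parental cells, where 37.5% of all genes were called, 16.4% higher and 21.2% lower. In ESR2 cells it raised 1 and lowered 4, where 32.6% of all genes were called, 14.4% higher and 18.2% lower. That count of 5 in ESR2 cells was 3 without ESR2 normoxia replicate 1 or 3 or ESR2 hypoxia replicate 1, and 2 without ESR2 hypoxia replicate 2. With estradiol hypoxia raised 2 and lowered 3 in parental cells, where 34.8% were called (16.1% higher, 18.7% lower), and raised 4 and lowered 3 in ESR2 cells, where 52.3% were called (29.6% higher, 22.6% lower). The gene that rose in all 4 settings was SLC39A10. Among the metallothioneins alone, hypoxia without estradiol lowered 4 of 7 in parental and 3 of 7 in ESR2 cells and raised none, with medians of -0.14 in both against 0.00 and -0.06 over all genes. Of the 4 parental calls, that of MT2A was lost in 27 of 34 alternatives and that of MT1H in 5 of 33. All 3 calls in ESR2 cells were lost in some: MT1G in 6 of 34, MT1H in 3 of 33 and MT1X in 7 of 34. These probe sets may also share signal. With estradiol hypoxia raised MT1F and lowered MT1E in parental cells, and raised MT1F, MT1G and MT1X and lowered MT1E in ESR2 cells. Without estradiol the hypoxic change was higher in ESR2 than parental cells for 1 and lower for 3 of the 10 genes (30.7% of all genes called, 16.4% higher and 14.3% lower). That count of 4 was 2 without parental hypoxia replicate 1 or ESR2 hypoxia replicate 1 or 2. With estradiol it was higher for 2 and lower for 3 (38.6% called, 20.6% higher and 18.1% lower). Of these 5, the index in the model ended the calls of SLC30A1 (-0.41, adjusted p = 0.0692) and MT1M (0.31, adjusted p = 0.0682), and averaging probe sets ended that of MTF1 (-0.16, adjusted p = 0.143) and turned SLC30A1 to 1.26.

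**Figure D3:**
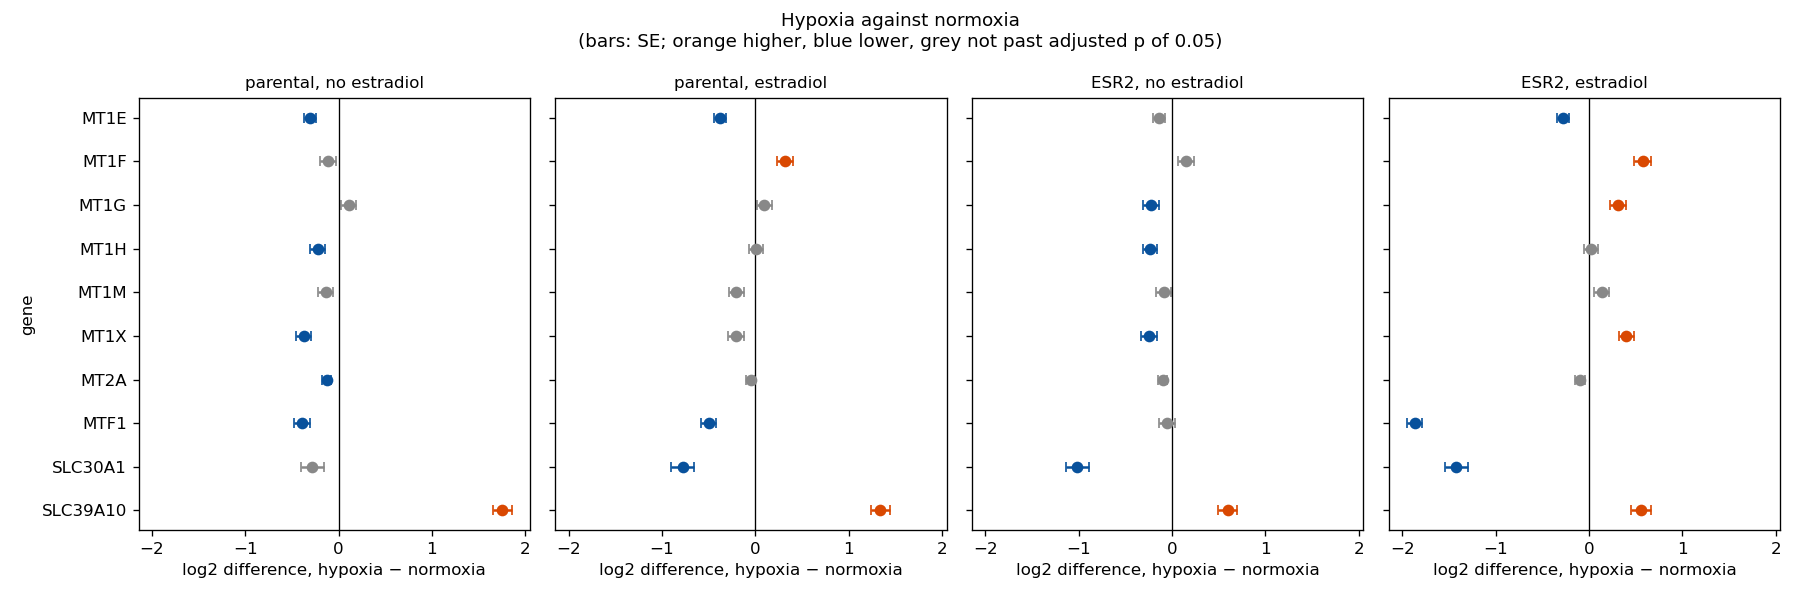
Log2 difference of hypoxia against normoxia for the 10 genes in 4 settings (points; bars are SE; colour marks calls at an adjusted p of 0.05). SLC39A10 is right of 0 in all 4 panels, from 0.56 to 1.76, and MTF1 and SLC30A1 lie farthest left in ESR2 cells with estradiol (-1.87 and -1.42).

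ESR2 against parental cells gave 1 higher and 3 lower of 10 in normoxia without estradiol, where 18.6% of all genes were called (9.76% higher, 8.86% lower). Without ESR2 normoxia replicate 2 that count of 4 was 2. In hypoxia without estradiol 2 were higher and 5 lower, where 40.4% of all genes were called (20.4% higher, 20% lower). The 5 lower in hypoxia were SLC39A10, MT1F, MT1G, MT1H and MT2A, and the 2 higher were SLC30A1 and MTF1. On leaving out ESR2 hypoxia replicate 2 the count of 7 was 2, without replicate 1 of that group 3, and without parental hypoxia replicate 1 it was 4. With estradiol SLC30A1 alone of the 10 was called in normoxia, where 13.7% of all genes were (8.45% higher, 5.22% lower). In hypoxia with estradiol MT1X, MT1F and MT1M were higher and MTF1 and SLC39A10 lower, where 47.7% of all genes were called (27.8% higher, 19.8% lower). The MT1M call (0.22, adjusted p = 0.0253) was lost without parental hypoxia with estradiol replicate 2 (adjusted p = 0.0551) or 3 (0.198), or ESR2 hypoxia with estradiol replicate 2 (0.0914) or 3 (0.0542), and with the 3′ minus 5′ index in the model (0.19, adjusted p = 0.167). The index also ended the MT1F call there, as given above. MT1G in hypoxia without estradiol was 5.46, 5.36 and 5.45 in parental cells, above all 3 ESR2 arrays (difference -0.31, adjusted p = 0.00357).

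Outside hypoxic ESR2 cells 1 member was called for estradiol. That was MT1F, 1 of 10 in normoxic parental cells (0.011% of all genes). At an unadjusted p under 0.05 there were 5 of 10 members there, beside 2524 of all 18239 genes. Without replicate 1 of the untreated group SLC30A1 (0.58, adjusted p = 0.0382) and SLC39A10 (0.47, adjusted p = 0.0391) were called too. In hypoxic parental cells 0 of 10 were called (0.0164% of all genes), and in normoxic ESR2 cells 0 of 10 (0% of all genes). At an unadjusted p under 0.05 the members were also 0 in both, beside 846 and 981 of all 18239 genes. The intervals for the members reached at most 0.34 from 0 in these 2 settings. In hypoxic ESR2 cells the brightest probe sets of MT1F, MT1G, MT1M and MT1X were higher and those of MTF1 and SLC30A1 lower, where 57% of all genes were called (35.4% higher, 21.6% lower), so that the share of members called was near that of all genes. MT1M there differed by 0.19 (adjusted p = 0.0491), and that call was lost in 24 of 33 alternatives, among them the index in the model (0.15, adjusted p = 0.377). With the index the calls of SLC30A1 (-0.025, adjusted p = 0.921) and MT1F (0.31, adjusted p = 0.0591) were lost too, and the other SLC30A1 probe set was higher by 1.87. The effect of estradiol differed between oxygen levels for 4 of 10 genes in ESR2 cells, higher in hypoxia for 3 and lower for 1 (43.8% of all genes, 25.4% higher and 18.4% lower). In parental cells it did so for 0 of 10 (0.00548% of all genes). At an unadjusted p under 0.05 these were 4 of 10, beside 921 of all 18239 genes. Between the cell types, over both oxygen levels, the effect differed for 4 of 10, 2 in each direction (24.5%, 11.6% higher and 12.9% lower). With the index in the model the MT1F interaction with oxygen in ESR2 cells (0.27, adjusted p = 0.192) and the SLC30A1 interaction with cell type (-0.18, adjusted p = 0.409) lost their calls, and averaging probe sets turned the second to 0.38.

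**Figure D4:**
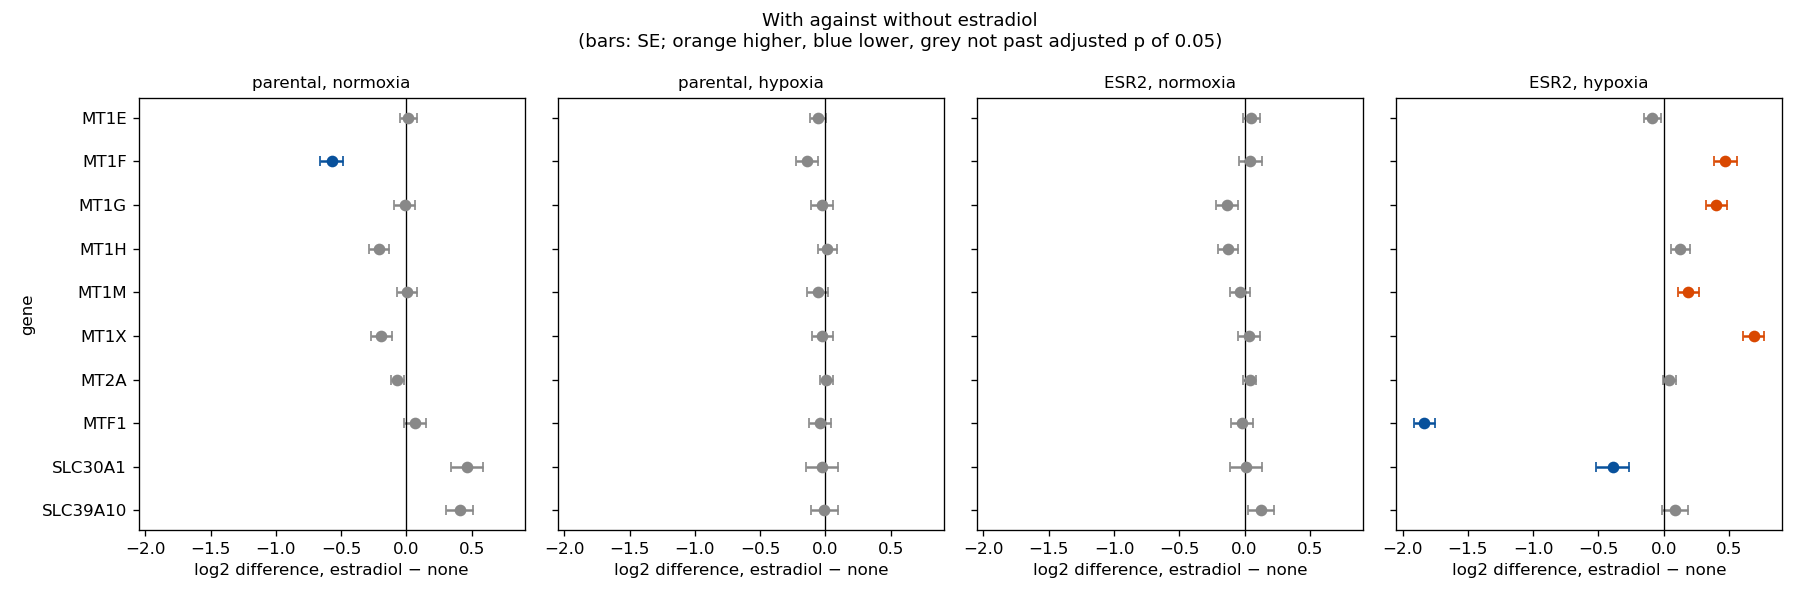
Log2 difference with against without estradiol for the 10 genes in 4 settings (points; bars are SE; colour marks calls at an adjusted p of 0.05). In hypoxic ESR2 cells MT1X lies at 0.69 and MTF1 at -1.83, while no gene is called in hypoxic parental or normoxic ESR2 cells.

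The members did not share a single pattern over the 8 groups. Only SLC39A10, SLC30A1 and MTF1 had group means with an SD of at least 0.3. Over the 8 group means, each gene centred on its own mean, the average of the 7 metallothioneins was highest in normoxic parental cells without estradiol (0.16) and in hypoxic ESR2 cells with estradiol (0.11), and lowest in hypoxic ESR2 cells without it (-0.15). The highest groups also had the highest mean 3′ minus 5′ index (3.20 and 3.74), and the lowest group had the lowest (2.10). The part of array quality in this pattern was not tested. Among all pairs of members, by their brightest probe sets, MT1H and MT2A had the highest correlation (r = 0.86 over 8 group means) and MT1F and SLC30A1 the lowest (r = -0.77). The other SLC30A1 probe set, which disagreed with the brightest, was not used for this. MT1H is dim (mean 3.11) and MT2A near the top of the range (12.99). The part of shared probe signal in their r was not tested. MT1E and MT1F, both metallothioneins, had r = -0.37. These are descriptions of 8 points from the same arrays.

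Of 4963 other genes whose group means varied enough, those most like the metallothionein average were BSG (r = 0.85), SNAI1 (0.85), CCDC183 (0.84), UPP1 (0.83) and PEA15 (0.82). That average was highest in the groups of highest 3′ minus 5′ index and lowest in the group of lowest index, as given above. The part of array quality in these r was not tested. By its brightest probe set SLC30A1 was most like TMEM170B (r = 0.98), DCAF13 (0.97) and TTC8 (0.97). The other SLC30A1 probe set, which disagreed with the brightest, was not compared. TMEM170B is dim, with group means from 2.55 to 3.33. SLC39A10 was most like HSP90B1 (r = 0.99), the endoplasmic reticulum chaperone GRP94, RBPJ (0.99), the DNA-binding partner of Notch, and WWTR1 (0.99), the transcriptional coactivator TAZ. Each r is a description over 8 points.

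Counts of other genes of these pathways are given beside the shares of all genes called. Of 10 further zinc exporters, hypoxia without estradiol raised 2 and lowered 2 in parental cells (SLC30A5 higher by 0.68 and SLC30A9 by 0.44, SLC30A6 -1.01 and SLC30A7 -0.45), where 16.4% of all genes were higher and 21.2% lower, and raised 0 and lowered 2 in ESR2 cells, where 14.4% were higher and 18.2% lower. SLC30A5, SLC30A6 and SLC30A7 load zinc into the secretory pathway. SLC30A6 was higher in ESR2 than parental cells in hypoxia, by 1.11 (adjusted p = 6.18e-10) without and 1.49 (adjusted p = 1.55e-12) with estradiol. With estradiol 6 of the 10 exporters were higher and 1 lower in hypoxic ESR2 cells, where 35.4% of all genes were higher and 21.6% lower, with a median of 0.31 against 0.12 over all genes. Dim exporters add to that median: SLC30A2 had means of 2.95 without and 3.27 with estradiol there, and SLC30A8 of 3.42 and 3.72. The group with estradiol is also the one with the highest 3′ minus 5′ index.

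Of 13 further importers, hypoxia without estradiol raised 2 and lowered 3 in parental cells and raised 1 and lowered 2 in ESR2 cells, where 37.5% and 32.6% of all genes were called. SLC39A14 (ZIP14), which also carries iron and manganese, fell in parental cells by 0.72 (difference -0.72, adjusted p = 1.47e-08), and SLC39A3 by 0.75 (difference -0.75, adjusted p = 6.09e-06). In hypoxic ESR2 cells estradiol raised 4 and lowered 4, where 57% of all genes were called; SLC39A11 was lower by 1.94 (difference -1.94, adjusted p = 1.76e-15), from a mean of 6.22 to 4.27. The medians of the other importers in the 4 hypoxia comparisons lay between -0.03 and -0.16.

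Of 10 other metallothionein genes and pseudogenes, 6 were measured. None was higher in hypoxia without estradiol, and 2 were lower in each cell type, where 21.2% of all genes were lower in parental and 18.2% in ESR2 cells. Estradiol in hypoxic ESR2 cells raised 4 of the 6, where 35.4% of all genes were higher (MT1B by 0.37, MT1DP by 0.46, MT1IP by 0.61 and MT1JP by 0.36), which sit among the near-identical neighbours on chromosome 16 and may share their signal. MT3 and MT4 were not called there. MT1DP (means of 3.73 without and 4.19 with estradiol) and MT1JP (2.76 and 3.12) were dim, and the MT1JP arrays overlapped. The group with estradiol again had the highest 3′ minus 5′ index. Of 4 further genes described as MTF1 targets, PGF, placental growth factor, was higher by 0.71 (adjusted p = 2.21e-06) and SELENOW lower by 0.37 (difference -0.37, adjusted p = 0.00193) with estradiol in hypoxic ESR2 cells. With hypoxia without estradiol 2 of the 4 were lower in each cell type and none higher, beside the same 21.2% and 18.2% of all genes.

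Of 10 genes that respond to metals or oxidants, hypoxia without estradiol raised 1 and lowered 6 in parental cells, where 16.4% of all genes were higher and 21.2% lower, and raised 4 and lowered 2 in ESR2 cells, where 14.4% were higher and 18.2% lower. SRXN1, which repairs oxidised peroxiredoxins, fell by 1.18 (difference -1.18, adjusted p = 2.78e-12) and HMOX1, heme oxygenase, by 0.64 (difference -0.64, adjusted p = 2.51e-06) in parental cells. In hypoxia without estradiol 6 of the 10 were higher and 1 lower in ESR2 than in parental cells, where 20.4% of all genes were higher and 20% lower. The gene that was lower was SLC7A11, a cystine transporter (-0.36, adjusted p = 0.046), and those higher included SRXN1 by 0.99 (adjusted p = 9.2e-11) and HSPA1B, an inducible heat shock chaperone, by 0.76 (adjusted p = 3.63e-09). These comparisons share arrays with those of the members and are given side by side only.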

How the data were processed

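Total RNA was measured on 24 arrays, 3 in each of 8 groups. The deposited values are log2 signals per probe set that the authors made with RMA from the affy package, per the submitters' processing notes, whose versions the sources used here do not give. RMA quantile-normalizes the arrays, so a shift shared by most genes is largely lost, and differences of dim probe sets are compressed. The number of arrays limits the precision. Of 49293 non-control probe sets, 45253 had 1 symbol in GEO's platform annotation, and the brightest per gene was used for 18239 genes.

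In R 4.3.3, limma 3.58.1 (lmFit, eBayes) estimated a mean for each group from the 24 arrays together, leaving 16 residual degrees of freedom. P-values of 17 comparisons were adjusted by Benjamini-Hochberg over all genes within each, with a threshold of 0.05; the check across every probe set adjusted over 45253. The fit was tested on simulated data. Errors are limma's SE or the SD. Named genes were all 10 members, up to 4 called genes of each list by smallest p, ESR2, and the 5, 3 and 3 genes most like the metallothionein mean, SLC30A1 and SLC39A10 by Pearson r, among those whose group means had an SD of at least 0.3. Members and lists were chosen with earlier results of these data known. Alternatives were 10 changes of normalization, probe sets, filter, variance model and covariates, and leaving out each of 24 arrays. Figures were drawn with matplotlib 3.10.9.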

Additional observations from a re-analysis of the deposited data

Results flagged for a closer look

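These genes are given because an effect differed between groups by limma's test of the difference itself, adjusted over all genes. The hypoxic change was lower in ESR2 than in parental cells for SLC39A10, at a difference of -1.16 (SE 0.15, adjusted p = 1.42e-06) without and -0.78 (SE 0.15, adjusted p = 0.000125) with estradiol. For SLC30A1 it was lower, at -0.73 (adjusted p = 0.00221) without and -0.65 (adjusted p = 0.00478) with estradiol by its brightest probe set, where the other probe set gave 0.80 and 3.17; with the 3′ minus 5′ index in the model the second was -0.41 (adjusted p = 0.0692). For MTF1 it was higher by 0.33 (adjusted p = 0.034) without estradiol and lower, at -1.37 (adjusted p = 2.22e-09) with it. The first MTF1 call was lost in 8 of 34 alternatives, among them leaving out parental normoxia replicate 1 (adjusted p = 0.0773) or 3 (0.0594), parental hypoxia replicate 1 (0.12), ESR2 normoxia replicate 3 (0.0975) or ESR2 hypoxia replicate 1 (0.0591) or 2 (0.0929), all without estradiol. The second rests on the brightest probe set, since averaged over its 5 probe sets it was -0.16 and not called (adjusted p = 0.143). For MT1G it was lower, at -0.34 (adjusted p = 0.0298) without estradiol, a call lost in 8 of 34 alternatives, among them leaving out parental normoxia replicate 1 (adjusted p = 0.0719), parental hypoxia replicate 1 (0.0632) or 3 (0.0601), ESR2 normoxia replicate 2 (0.0791) or ESR2 hypoxia replicate 1 (0.0532) or 2 (0.0915), all without estradiol. With estradiol it was higher for MT1X by 0.61 (adjusted p = 0.000218) and for MT1M by 0.34 (adjusted p = 0.0209). The MT1M call was lost in 5 of 33 alternatives: a repeated quantile normalization (adjusted p = 0.0801), the index in the model (0.31, adjusted p = 0.0682), and leaving out, with estradiol, parental normoxia replicate 3 (0.0576), parental hypoxia replicate 3 (0.0821) or ESR2 hypoxia replicate 2 (0.0511).

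Over both oxygen levels the estradiol effect was higher in ESR2 than in parental cells for MT1F by 0.62 (adjusted p = 1.35e-05) and for MT1X by 0.47 (adjusted p = 0.000204), and lower for MTF1, at -0.94 (adjusted p = 3.87e-08) and for SLC30A1, at -0.41 (adjusted p = 0.0178). For SLC30A1 the index in the model gave -0.18 (adjusted p = 0.409), and averaging its probe sets turned the value to 0.38. Within ESR2 cells the estradiol effect was higher in hypoxia than in normoxia for MT1X by 0.65 (adjusted p = 0.000131), for MT1G by 0.54 (adjusted p = 0.000723) and for MT1F by 0.43 (adjusted p = 0.00743; 0.27 and not called with the index in the model, adjusted p = 0.192, and 0.19 averaged over its probe sets, adjusted p = 0.126), and lower for MTF1, at -1.81 (adjusted p = 8.35e-11). The group in hypoxia with estradiol is also the one with the highest 3′ minus 5′ index.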

How the results depend on the processing

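Of 170 pairs of a member and a comparison, 64 were called, and 37 of these calls held in every one of the alternatives run. Averaging the probe sets of a gene turned SLC30A1 around for estradiol in hypoxic ESR2 cells (0.74), for the hypoxia by ESR2 interaction without (0.035) and with estradiol (1.26), for the estradiol by ESR2 interaction (0.38) and for the estradiol by oxygen interaction in ESR2 cells (0.73), and MTF1 for hypoxia in ESR2 cells without estradiol (0.24). Arrays were not treated as paired by replicate number. Correlations of same-numbered deviations ran from -0.29 to 0.29, and in 0 of 12 comparisons were all over 0.1. They ran from 0.07 to 0.21 for hypoxia in ESR2 cells without estradiol. Such values from 3 arrays per group cannot show whether the cultures were paired. A block on the replicate number left 0 members called for estradiol in normoxic parental cells, ended the calls of MT1F there (adjusted p = 0.0585), of MT2A for hypoxia in parental cells (0.0667), of MT1H for ESR2 in hypoxia (0.0533) and of MT1M for estradiol in hypoxic ESR2 cells (0.0609). The members called for estradiol in normoxic parental cells were 0 with averaged probe sets, with every probe set tested, with a spread from only the groups compared and with the 3′ minus 5′ index as covariate, 5 with array weights, and 0 to 3 on leaving out an array. For ESR2 in normoxia with estradiol 2 were called with averaged probe sets and with array weights. With a spread from only the groups compared 3 were called for hypoxia in ESR2 cells, 2 for ESR2 in normoxia and 4 for ESR2 in hypoxia, all without estradiol. With the index as covariate 3 were called for ESR2 in hypoxia with estradiol, 3 for estradiol in hypoxic ESR2 cells and 3 for the hypoxia by ESR2 interaction with estradiol. Leaving out an array gave 2 to 5 for hypoxia in ESR2 cells, 2 to 5 for ESR2 in normoxia, 2 to 7 for ESR2 in hypoxia and 2 to 4 for their interaction, all without estradiol. The causes were not tested. Over all genes, 643 were called for estradiol in normoxic parental cells without replicate 1 of the untreated group and 0 without its replicate 2, against 2; ESR2 in normoxia without estradiol called 1061 with a spread from only the groups compared, against 3396. For estradiol in hypoxic ESR2 cells 6897 were called with the index as covariate, against 10394, and testing every probe set gave up to 22514 calls among more features.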

Other observations

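Copper handling genes moved mostly down with estradiol in hypoxic ESR2 cells: 7 of 10 were lower and 1 higher, against 21.6% of all genes lower and 35.4% higher. The mean 3′ minus 5′ index was 3.74 in the group with estradiol and 2.10 in that without it. The part of array quality in these differences was not tested. ATP7B, a copper-transporting ATPase, was lower by 1.17 (difference -1.17, adjusted p = 1.77e-08), and ATOX1, the copper chaperone of such ATPases, was higher by 0.79 (adjusted p = 3.04e-08). In hypoxia without estradiol the mitochondrial copper proteins SCO1 (-0.52, adjusted p = 1.07e-05) and SCO2 (-1.03, adjusted p = 1.7e-09) were lower in parental cells, and SLC31A1, the copper importer CTR1, was higher (0.56, adjusted p = 4.1e-05). In all, 2 of 10 copper genes were higher and 4 lower there, where 16.4% of all genes were higher and 21.2% lower.

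Metallothioneins are also induced by glucocorticoids, and 7 genes were taken from that response, of which 1 is the receptor NR3C1 itself. Hypoxia without estradiol raised 2 and lowered 1 of them in parental cells, where 37.5% of all genes were called, and raised 5 and lowered 0 in ESR2 cells, where 14.4% of all genes were higher. KLF9 was higher in parental cells by 2.79 (adjusted p = 2.48e-13), and in hypoxia without estradiol it was lower in ESR2 than in parental cells by 3.10 (difference -3.10, adjusted p = 1.19e-13). FKBP5 differed by -0.34 (adjusted p = 3.96e-05) in parental and 0.30 (adjusted p = 0.000265) in ESR2 cells under hypoxia without estradiol, and the difference between these was 0.64 (adjusted p = 2.09e-06).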
